A study of Mus musculus with 9 samples.

Results

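Interferon-stimulated genes are the genes that cells switch on when an interferon, a secreted antiviral cytokine, binds its receptor. The list held 38 of them, and a member was the entry of the expression table that carries its gene symbol. In all, 37 of the 38 were found among the 37801 genes used, and Ifi27 was not found under that symbol. Guanylate-binding proteins, chemokines and MHC genes were left out of the list. The RNA came from lymph nodes according to the study's text, although nevus melanocytes are named as the source in the labels. There were 3 groups of 3 mouse libraries. The WT libraries carry wtNRAS and wtMHCII on the FVB/NJ strain. The Tyr-NrasQ61K libraries carry NRAS61K with wtMHCII and are labelled Cre-negative. The MHCII-KO libraries carry NRAS61K with MHCII-KO and are labelled Cre-positive. Both NRAS61K groups are on an FVB/NJ cross, so transgene and strain label cannot be told apart in a comparison with WT. The study's text instead describes its WT controls as albino littermates without the transgene. The transgene is driven by the tyrosinase promoter, so it is expressed in pigment cells, which are a small part of a node. The labels do not name the MHC class II gene deleted, the promoter of the Cre or the ages of the mice. Nothing in them ties each library to its own mouse, so a p-value here speaks for the spread between libraries, which may be technical.

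Type I interferons signal through the receptor chains IFNAR1 and IFNAR2 and the kinases JAK1 and TYK2 to transcription factors that include STAT2 and IRF9. These act in a complex that binds the interferon-stimulated response element in the promoters of its target genes. The targets include proteins that block viral replication, sensors of foreign nucleic acid, and the same transcription factors and regulators that carry the signal. In a lymph node, plasmacytoid dendritic cells and macrophages are known sources of type I interferon. A bulk measurement cannot tell fewer expressing cells from less RNA per cell.

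The libraries were measured as FPKM, fragments scaled to transcript length and library size, which allows levels to be compared between genes. All 37 members were above 0 in every library and passed the filter, set at an FPKM of 1 in 3 libraries, as did 16587 genes in all. Their FPKM ran from 1.27 to 122.8. The gene with the highest mean was Samhd1, whose product degrades the nucleotides that reverse transcription needs, with a mean of 96.4 over the 9 libraries. It was followed by the transcription factor gene Irf1 at 46.4 and Bst2, the gene of the virion tether tetherin, at 44.7. Mx2 was lowest at 1.87, and the annotation lists it as a polymorphic pseudogene. In 8 members the mean was under 5 FPKM and in 9 it was at least 20.

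Several facts about the libraries bear on every result below. The libraries numbered 2 of the Tyr-NrasQ61K and MHCII-KO groups stood apart on the first principal component of all genes, at 101.9 and 78.6 against -74.1 to 21.8 for the other libraries. Tyr-NrasQ61K replicate 3 stood apart on the second component, at -99.95 against -12.9 to 35.0. The libraries numbered 2 of the transgenic groups also had the lowest estimated depth, 0.746 and 0.864 times that of WT replicate 1. The other libraries reached 1.32 to 1.67 times. The T cell markers summed to 175 to 438 FPKM and the B cell markers to 347 to 705 per library, so lymphocyte genes were high in all 9. The melanocyte markers had sums of 3.89 to 5.67 in WT, of 12.7 to 17.4 with Tyr-NrasQ61K and of 6.84 to 12.1 with MHCII-KO, and Dct, a melanin synthesis gene, was called higher in Tyr-NrasQ61K than in WT (adjusted p = 0.0431). Nras itself was no higher in the transgenic groups, at 14.3, 10.3 and 14.7 FPKM in WT, 10.7, 5.55 and 14.4 in Tyr-NrasQ61K and 10.8, 7.48 and 11.1 in MHCII-KO libraries. The MHCII-KO label did not show in the whole node. H2-Ab1, a class II chain, stood at 149, 276 and 207 FPKM with Tyr-NrasQ61K, beside 271, 108 and 165 with MHCII-KO. H2-Aa stood at 587, 276 and 802 against 634, 362 and 499, and H2-Eb1 at 381, 355 and 578 against 444, 360 and 387.

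The members differed widely between libraries of the same group. WT replicate 3 was the highest WT library in 34 of the 37 members, and WT replicate 2 was the lowest in 32. For all genes tested, WT replicate 3 was the highest in 43.3% and WT replicate 2 the lowest in 68.6%. MHCII-KO replicate 1 was the highest of its group in 33 members, against 42.8% of all genes, and MHCII-KO replicate 2 was the lowest in 30, as it was in 59.3% of all genes. Tyr-NrasQ61K replicate 3 was the highest of its group in 22 members, but it was so in 63.6% of all genes. The mean log2(FPKM + 1) of the members was 3.52, 3.22 and 4.15 in WT replicates 1, 2 and 3. It was 3.31, 3.21 and 3.55 in Tyr-NrasQ61K and 3.80, 3.18 and 3.45 in MHCII-KO libraries. Over all genes tested the same mean was 3.17 in both WT replicates 1 and 3, and 2.96 and 2.98 in MHCII-KO replicates 1 and 3. The members were thus high in WT replicate 3 and in MHCII-KO replicate 1 beside a library of the same group with an equal level over all genes. In WT replicate 3 the median member stood at 1.52 times its value in WT replicate 1, and 12 members at 2 times or more. In MHCII-KO replicate 1 the median member stood at 1.27 times its value in replicate 3, and 1 member at 2 times or more.

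**Figure D1:**
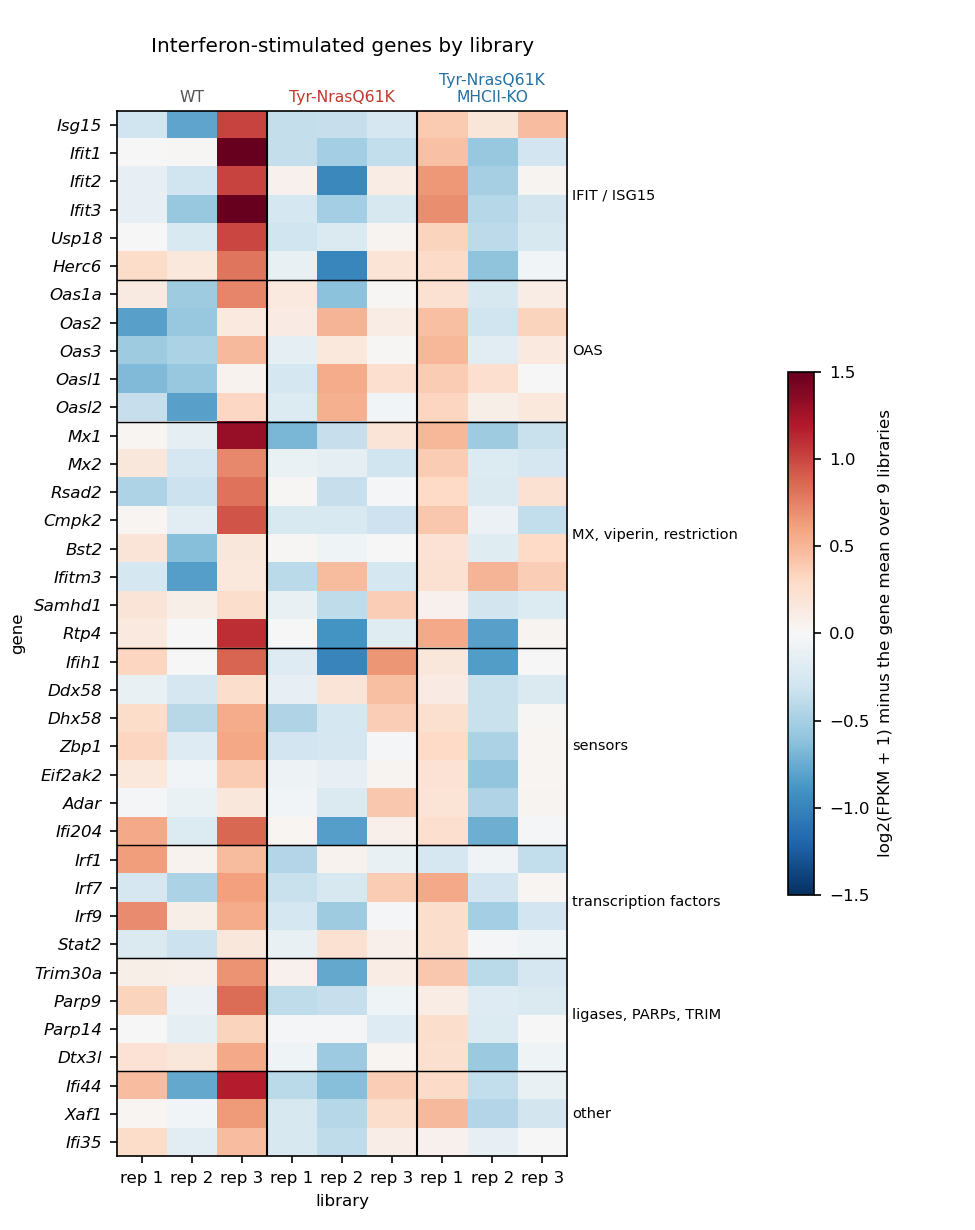
Level of each of the 37 interferon-stimulated genes (rows, grouped by role) in the 9 libraries (columns), as log2(FPKM + 1) minus the mean of the gene over the 9 libraries, with colors held at 1.5 either way. WT replicate 3 is the highest WT library in 34 of 37 genes and MHCII-KO replicate 1 the highest MHCII-KO library in 33, while 4 of the 5 OAS genes are below their mean over the 9 libraries in both WT replicates 1 and 2.

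Markers of other cell types were summed in the same libraries, and no marker of these lists was at 0 in all of them. Plasmacytoid dendritic cell markers summed to 181, 118 and 184 FPKM in WT replicates 1 to 3, to 120, 61.6 and 155 in Tyr-NrasQ61K and to 118, 78.1 and 124 in MHCII-KO libraries. Macrophage markers summed to 681, 276 and 672 FPKM in WT, 369, 240 and 305 in Tyr-NrasQ61K and 316, 267 and 419 in MHCII-KO libraries. In both sums replicate 2 was the lowest library of WT and of MHCII-KO, as for most members. The sums of WT replicates 1 and 3 were alike, and that of MHCII-KO replicate 3 was above that of replicate 1. A sum is set mainly by its highest genes. By gene, WT replicate 3 was the highest WT library in 5 of 7 plasmacytoid dendritic cell and 7 of 10 macrophage markers, against 43.3% of all genes. MHCII-KO replicate 3 was the highest of its group in 5 and 10 of them, against 35.6% of all genes. T cell markers summed to 325, 247 and 381 FPKM in WT, 251, 184 and 438 in Tyr-NrasQ61K and 296, 175 and 293 in MHCII-KO libraries. WT replicate 3 and MHCII-KO replicate 1 were highest, as for the members, but MHCII-KO replicates 1 and 3 were nearly level. B cell markers summed to 696, 542 and 660 FPKM in WT, where replicate 1 was highest. Their sums were 488, 347 and 705 in Tyr-NrasQ61K and 533, 362 and 412 in MHCII-KO libraries. NK cell markers summed to 20.4, 14.4 and 28.4 FPKM in WT, with replicate 3 highest as for the members, and to 14.7, 10.3 and 17.03 with MHCII-KO, where replicate 3 and not replicate 1 was highest. The part of these cells in the member levels was not tested. Handling and stress genes ranged from 28.1 to 56.5 FPKM in sum in WT, from 33.0 to 45.7 with Tyr-NrasQ61K and from 40.1 to 45.7 with MHCII-KO.

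The stretches of promoter below are shown because they hold the letters of the interferon-stimulated response element in members of several roles. A window from 250 bases before to 50 after the start of the gene was available from RefSeq for 27 of the 37 members. The core of the element, GAAA followed after 2 free bases by GAAA again, or TTTC and TTTC spaced alike on the other strand, occurred in the windows of 13 of the 27, or 48.1%. They occurred in 3.99% of the 27025 genes of the same table. The 13 genes were Isg15, Ifit1, Ifit3, Rsad2, Oas1a, Oas3, Bst2, Stat2, Ddx58, Ifih1, Eif2ak2, Ifitm3 and Trim30a. In the sequences, which read 5′ to 3′ on the strand of the gene and end before its start, capitals mark the core letters. Neighboring copies can overlap in a single run of capitals. Coordinates are those of GRCm38.p6, the patched form of the mouse build mm10.
Isg15, chr4:156200865-156200906, minus strand: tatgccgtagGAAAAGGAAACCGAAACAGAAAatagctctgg
Ifit1, chr19:34640775-34640823, plus strand: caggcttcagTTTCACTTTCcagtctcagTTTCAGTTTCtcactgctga
Ifit3, chr19:34583363-34583426, plus strand: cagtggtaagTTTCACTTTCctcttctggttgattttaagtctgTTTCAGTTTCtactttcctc
Rsad2, chr12:26456553-26456582, minus strand: ctggtccaacTTTCATTTTCagaaaacaga
Oas1a, chr5:120907526-120907555, minus strand: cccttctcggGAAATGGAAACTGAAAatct
Oas3, chr5:120777715-120777744, minus strand: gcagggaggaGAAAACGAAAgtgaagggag
Bst2, chr8:71537577-71537612, minus strand: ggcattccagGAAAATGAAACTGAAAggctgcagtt
Stat2, chr10:128270266-128270295, plus strand: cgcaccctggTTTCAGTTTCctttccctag

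Isg15 held 3 overlapping copies, within 57 to 78 bases before its start. Ifit1 and Ifit3 held 2 separate copies each, all on the other strand. Oas1a held 2 overlapping copies within 5 to 20 bases of its start, and Bst2 held 2 within 115 to 130 bases. A match in these letters is a description of the sequence and not a measured binding site, and a window without them says nothing about binding.

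The first comparison, MHCII-KO against Tyr-NrasQ61K, sets nodes labelled MHCII-KO beside nodes labelled wtMHCII from mice with the same oncogene. The groups also differ in the Cre label, so the Cre and the deletion cannot be told apart. None of the 37 members passed the test, which was limma on log2(FPKM + 1) with Benjamini-Hochberg adjustment over all genes at 0.05. The adjusted p was 0.99994 for every member, and the number with an unadjusted p under 0.05 was also 0. Of all genes tested, 8 were called, or 0.0482%, and 252 had an unadjusted p under 0.05, or 1.52%. The member differences ran from -0.32 for Ddx58 to 0.67 for Isg15 on the log2 scale. On this scale, log2(FPKM + 1), the change of a low gene is understated. Of the 37 members, 29 were above 0, against 32% of all genes, and their median difference was 0.12, against -0.08 for all genes. The side of 0 on which most members lay depended on MHCII-KO replicate 1. Without that library 10 of the 37 were above 0 and the median was -0.04. The matching values over all genes are not given for fits that left out a library. How much of the lean beside all genes remained is therefore not shown. The median was 0.05 without Tyr-NrasQ61K replicate 2, 0.23 without Tyr-NrasQ61K replicate 3 and 0.27 without MHCII-KO replicate 2. Without both libraries that stood apart on the first component it was 0.18, with 31 members above 0. Quantile normalization gave 0.27 with 36 members above 0, and median-ratio scaling gave 0.21 with 33. Scaling moved all genes as well, to medians of 0.04 and -0.01 with 57.7% and 48.9% above 0. The members' median was above that of all genes by 0.21 without scaling, and by 0.23 and 0.21 with it.

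The 95% interval of the difference excluded a log2 difference of 1 in either direction in 26 of the 37 members. On the log2(FPKM + 1) scale a doubling of a low gene is less than 1. For low members the interval thus need not exclude a doubling of the FPKM. Over all members the bounds ran from -1.09 to 1.62. The interval differed in width between members, so the size of a difference that 3 libraries per group could show differed as well.

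**Figure D2:**
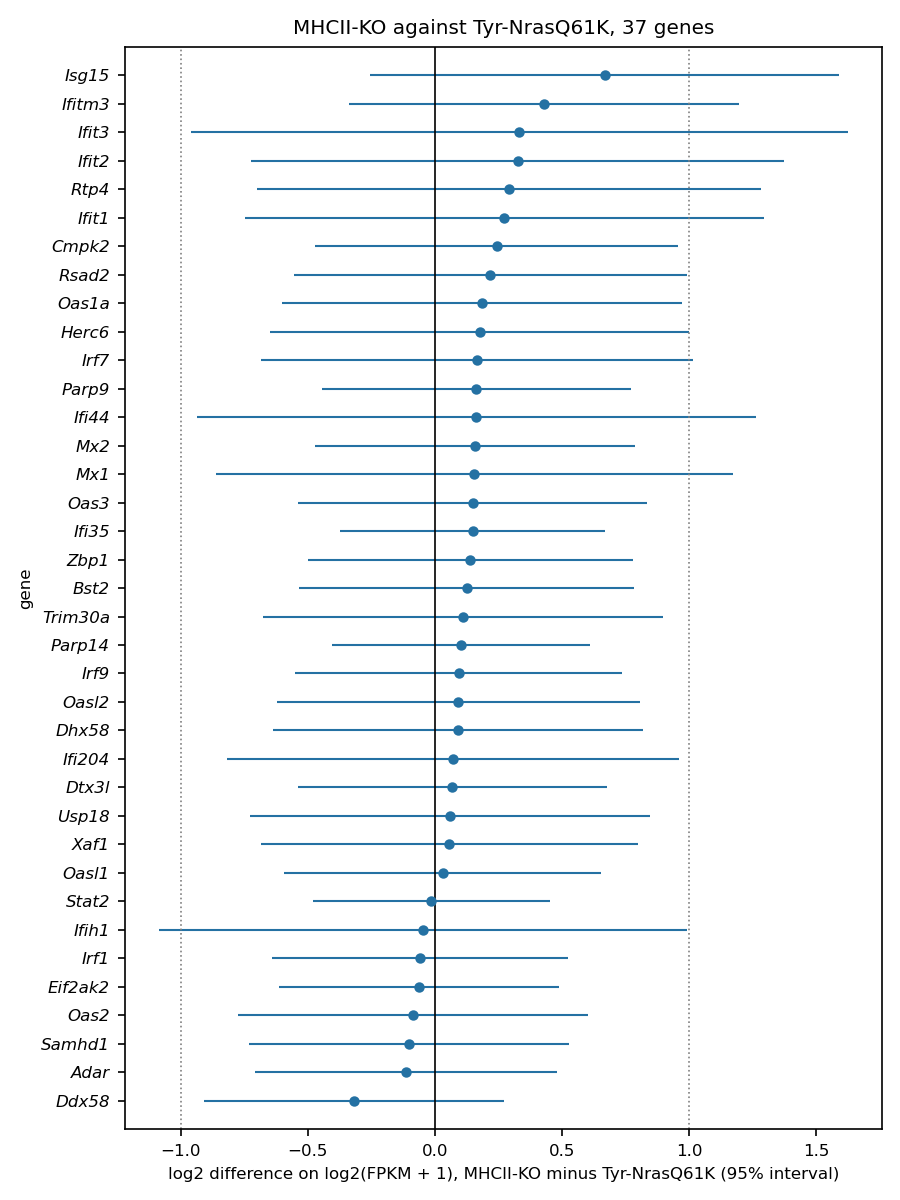
Difference of each of the 37 genes between the MHCII-KO and the Tyr-NrasQ61K libraries on the log2(FPKM + 1) scale (points) with 95% intervals (lines), 3 libraries per group, ordered by size. All intervals cross 0, and 26 of the 37 stay within the dotted lines at a log2 difference of 1 either way.

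The effector genes of the IFIT and ISG15 family came first by size. The IFIT proteins bind foreign RNA, ISG15 is a ubiquitin-like protein that is attached to other proteins, and USP18 removes it again. In 6 of 6 of these genes the difference was above 0, with a median of 0.30. The median was -0.02 without MHCII-KO replicate 1, 0.13 without Tyr-NrasQ61K replicate 2 and 0.12 with library weights. Isg15 stood at 5.03, 5.10 and 5.51 FPKM with Tyr-NrasQ61K, beside 9.17, 7.83 and 9.70 with MHCII-KO. All 3 MHCII-KO libraries were above all 3 Tyr-NrasQ61K libraries, which among the members held for Isg15 only and among all genes for 0.729%. The log2 difference was 0.67 (SE 0.40) and did not pass the test (adjusted p = 0.99994). The means were 5.21 ± 0.26 and 8.90 ± 0.96 FPKM (SD, n = 3). The SE is wider than these SDs would give because the fit shares 1 spread over the 3 groups, and Isg15 ranged from 3.47 to 14.7 FPKM among the WT libraries.

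Ifit1 stood at 2.35, 2.02 and 2.32 FPKM with Tyr-NrasQ61K, beside 4.82, 1.90 and 2.52 with MHCII-KO. Ifit2 stood at 5.62, 2.24 and 5.83 against 8.92, 3.47 and 5.51 FPKM. In both genes MHCII-KO replicate 1 was the highest library and replicate 2 was among the low ones, so the groups overlapped. The log2 differences were 0.27 (SE 0.45) for Ifit1 and 0.33 (SE 0.46) for Ifit2. Ifit3 gave 0.33 (SE 0.56), with MHCII-KO libraries at 15.4, 6.53 and 7.35 FPKM. Usp18 stood at 7.80, 8.32 and 10.1 against 12.7, 7.27 and 8.14 FPKM, a log2 difference of 0.06 (SE 0.34). Herc6, the ligase that attaches ISG15 in the mouse, gave 0.18 (SE 0.36). How Cufflinks shared reads between near-identical copies is not known here, which makes the values of Ifit3, Oas1a, Ifi204 and Trim30a uncertain.

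Among the genes of membrane and replication blocks, 7 of 8 were above 0, with a median of 0.19. Ifitm3, whose product stops viruses from fusing with the cell, stood at 28.1, 52.4 and 31.0 FPKM with Tyr-NrasQ61K, beside 43.8, 53.8 and 48.4 with MHCII-KO. Tyr-NrasQ61K replicate 2 lay among the MHCII-KO libraries, and the log2 difference was 0.43 (SE 0.33). Mx1, a GTPase that traps viral particles, stood at 4.03, 5.41 and 8.27 against 10.4, 4.61 and 5.42 FPKM. Its difference of 0.16 (SE 0.44) again came with MHCII-KO replicate 1 as the highest library. Rsad2, the gene of viperin, stood at 2.92, 2.04 and 2.82 against 3.75, 2.32 and 3.54 FPKM. Cmpk2, a nucleotide kinase gene next to Rsad2 on chromosome 12, stood at 3.17, 3.17 and 2.93 against 5.502, 3.60 and 2.80 FPKM. Their log2 differences were 0.22 (SE 0.34) and 0.24 (SE 0.31). Rtp4 stood at 4.58, 2.01 and 3.93 against 7.30, 2.17 and 4.76 FPKM, where replicate 2 was the low library of both groups. Bst2 stood at 44.5, 42.1 and 43.9 against 51.2, 38.5 and 54.4 FPKM, and Samhd1 at 88.2, 73.0 and 123 against 99.5, 78.1 and 82.1 FPKM. The log2 differences of these genes were 0.29 (SE 0.43), 0.12 (SE 0.29) and -0.10 (SE 0.28).

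The OAS enzymes make the short nucleotide chain that activates an RNA-degrading enzyme. In this comparison 4 of the 5 OAS genes were above 0, with a median of 0.09, and the median was -0.06 without Tyr-NrasQ61K replicate 1 and -0.02 without MHCII-KO replicate 1. Quantile normalization gave 0.23, median-ratio scaling 0.17 and library weights 0.27. Of the sensors and RNA-modifying enzymes, 3 of 7 were above 0, with a median of -0.05. Ddx58, the gene of the RNA sensor RIG-I, had the lowest difference of all members. It stood at 30.2, 38.04 and 45.6 FPKM with Tyr-NrasQ61K, beside 36.1, 25.9 and 28.4 with MHCII-KO, with 1 MHCII-KO library inside the Tyr-NrasQ61K range. The log2 difference was -0.32 (SE 0.26). The ligase, PARP and TRIM genes were above 0 in 4 of 4 cases with a median of 0.11, and the 3 other induced genes in 3 of 3 with a median of 0.15. Parp9 stood at 11.7, 11.98 and 14.9 against 16.9, 13.4 and 13.3 FPKM, a log2 difference of 0.16 (SE 0.26). Ifi35 stood at 12.1, 10.9 and 15.6 against 15.2, 13.2 and 14.4 FPKM, a difference of 0.15 (SE 0.23).

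The transcription factor genes that carry the interferon signal hardly separated the NRAS61K groups. Irf7, the factor that amplifies type I interferon production, stood at 20.6, 22.0 and 34.5 FPKM with Tyr-NrasQ61K, beside 39.2, 21.2 and 26.8 with MHCII-KO. Irf9 stood at 15.8, 12.9 and 18.8 against 23.1, 13.1 and 15.5 FPKM. Stat2 stood at 8.90, 11.5 and 10.3 against 11.8, 9.45 and 9.21 FPKM, and Irf1 at 33.0, 47.0 and 41.5 against 37.6, 43.5 and 34.8 FPKM. The groups overlapped in each of these genes, and the log2 differences were 0.16 (SE 0.37), 0.09 (SE 0.28), -0.01 (SE 0.20) and -0.06 (SE 0.25). The sign of each of these 4 changed when 1 library was left out. Those of Irf1 and Stat2 also changed with quantile normalization, median-ratio scaling and library weights.

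**Figure D3:**
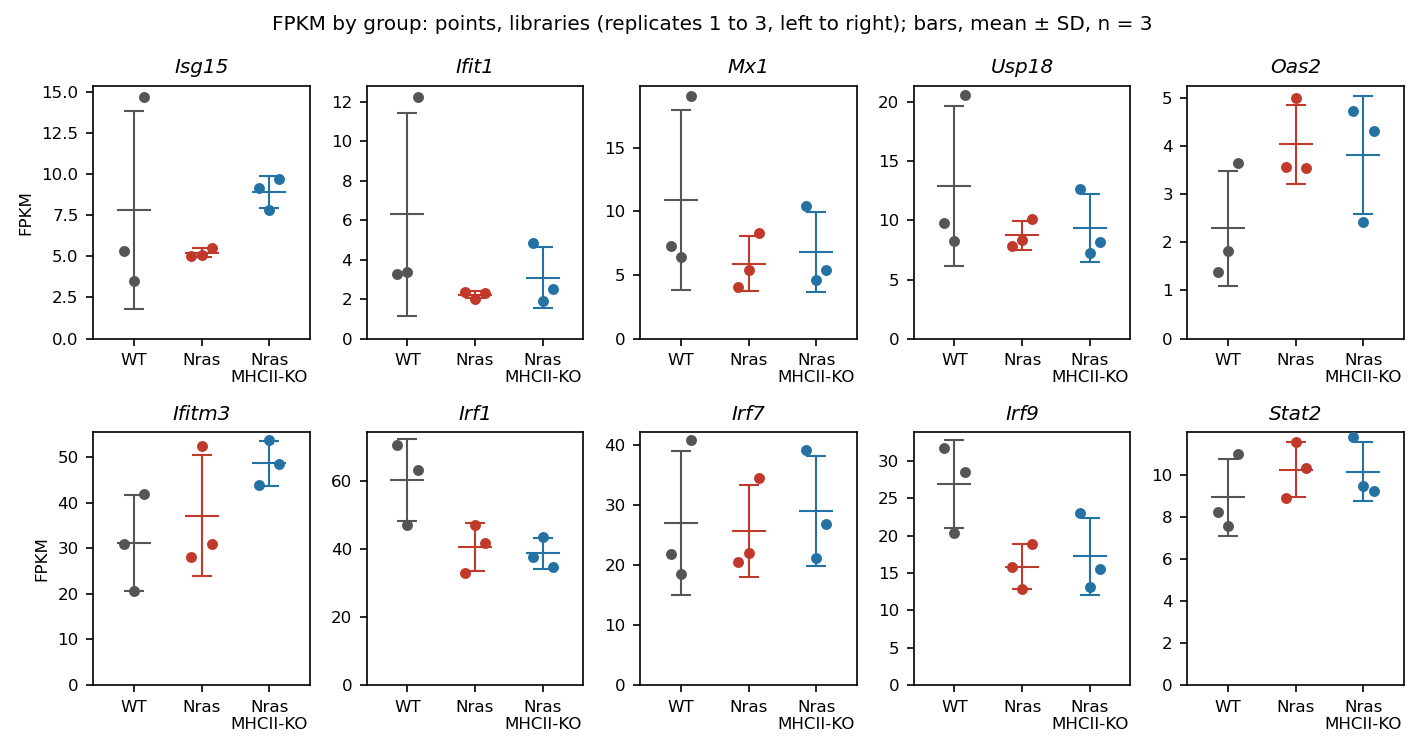
FPKM of 10 interferon-stimulated genes in the WT, Tyr-NrasQ61K (Nras) and Tyr-NrasQ61K MHCII-KO (Nras MHCII-KO) libraries, with 1 point per library in the order of replicates 1 to 3 and bars for the mean ± SD (n = 3). Isg15 is the gene in which all MHCII-KO points, at 7.83 to 9.70, lie above all Tyr-NrasQ61K points, at 5.03 to 5.51, and its WT points range from 3.47 to 14.7.

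The second comparison, Tyr-NrasQ61K against WT, asks how nodes of mice with NRAS61K melanocytes differed from those of WT mice. The strain label differs along with the transgene, here and in MHCII-KO against WT. None of the 37 members was called, where 39 of all genes were (0.235%). An unadjusted p under 0.05 was found for 2 members, both lower, against 15.2% of all genes in either direction. The smallest adjusted p was 0.317. Of the members, 28 were below 0 and 9 above, where 40.9% of all genes were above, and the median was -0.36 against -0.12 for all genes. In 5 members, Ifit1, Cmpk2, Rtp4, Irf9 and Dtx3l, all Tyr-NrasQ61K libraries were below all WT libraries. That held for 10.5% of all genes. WT replicate 3 weighed on this comparison. Without it the median was -0.08 with 14 members above 0, and without WT replicate 2 it was -0.59 with 6 above 0. Without Tyr-NrasQ61K replicate 2 it was -0.19. Median-ratio scaling gave -0.18, with 12 members above 0, but it also moved the median of all genes to 0.03, with 52.6% above 0. The members' median was below that of all genes by 0.24 without scaling and by 0.21 with it.

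Irf9, the DNA-binding part of the interferon-activated complex, stood at 31.7, 20.3 and 28.6 FPKM in WT and at 15.8, 12.9 and 18.8 in Tyr-NrasQ61K libraries. The groups did not overlap, and the log2 difference was -0.72 (SE 0.28, adjusted p = 0.317). Parp9 stood at 19.8, 14.5 and 28.6 FPKM in WT against 11.7, 11.98 and 14.9, so that the highest Tyr-NrasQ61K library passed the lowest WT library. Its log2 difference was -0.62 (SE 0.26). Irf1 stood at 70.4, 46.9 and 63.2 FPKM in WT against 33.0, 47.0 and 41.5, a log2 difference of -0.55 (SE 0.25) with 1 Tyr-NrasQ61K library just above the lowest WT library. Ifit1 stood at 3.29, 3.36 and 12.3 FPKM in WT against 2.35, 2.02 and 2.32, a log2 difference of -0.96 (SE 0.45) in which WT replicate 3 was far above the other WT libraries. Mx1 stood at 7.30, 6.40 and 19.1 FPKM in WT and Usp18 at 9.80, 8.25 and 20.7, with the same library high.

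The roles differed in the direction of their medians. All 6 genes of the IFIT and ISG15 family were below WT, with a median of -0.57. Of the 5 OAS genes, 4 were above WT, with a median of 0.38. Oas2 stood at 1.39, 1.83 and 3.66 FPKM in WT and at 3.56, 4.998 and 3.55 in Tyr-NrasQ61K libraries, a log2 difference of 0.66 (SE 0.30, adjusted p = 0.334). Only WT replicate 3 reached the Tyr-NrasQ61K range. Tyr-NrasQ61K replicate 2, one of the libraries that stood apart on the first component, was the highest of its group in 4 of the 5 OAS genes. The OAS median was 0.16 without that library, 0.12 without WT replicate 2, 0.68 without WT replicate 3, -0.05 with library weights and 0.06 over the OAS genes with a mean FPKM of at least 5. The IFIT and ISG15 median was -0.05 without WT replicate 3 and -0.37 without Tyr-NrasQ61K replicate 2. No test was made of the difference between the families.

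**Figure D4:**
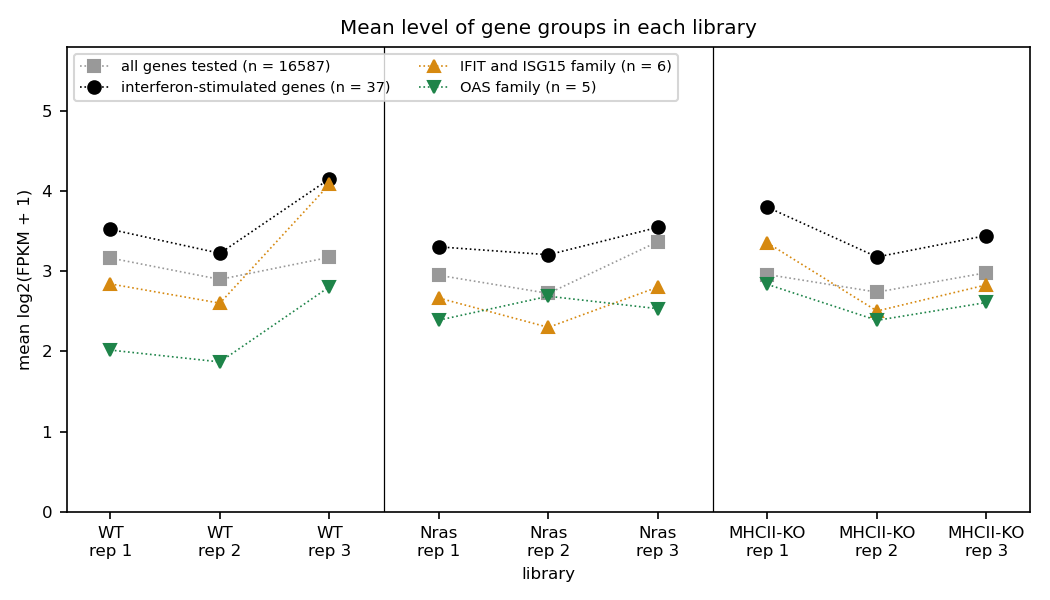
Mean log2(FPKM + 1) in each of the 9 libraries for all genes tested, the 37 interferon-stimulated genes, the 6 genes of the IFIT and ISG15 family and the 5 OAS genes. Within WT the interferon-stimulated genes stand at 4.15 in replicate 3, where all genes stand at 3.17, and in MHCII-KO replicate 1 they stand at 3.80 beside 2.96 for all genes.

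The remaining roles lay below WT on balance. The sensors had 5 of 7 genes below 0 with a median of -0.26, the membrane and replication blocks 6 of 8 with -0.31, and the transcription factors 3 of 4 with -0.29. All 4 ligase, PARP and TRIM genes were below 0, with a median of -0.50, and so were the 3 other induced genes, with -0.36. No marker of the lists of lymphocytes, NK cells, dendritic cells, macrophages or adipocytes was called in this comparison. The median differences of these lists were all below 0, at -0.67 for T cells, -0.63 for dendritic cells, -0.55 for macrophages, -0.26 for plasmacytoid dendritic cells, -0.14 for B cells and -2.26 for adipocytes, and all 7 NK cell markers were below 0. The sum of the dendritic cell markers was 98.0 to 139 FPKM in WT, against 54.1 to 106 with Tyr-NrasQ61K and 63.4 to 84.5 with MHCII-KO. That of the adipocyte markers was 283 to 466 FPKM in WT, against 31.1 to 174 with Tyr-NrasQ61K and 51.7 to 144 with MHCII-KO. The part of these cells in the member differences was not tested.

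The last comparison, MHCII-KO against WT, shares its groups with the other comparisons and is not independent of them. None of the 37 members was called, where 24 of all genes were (0.145%). The only member with an unadjusted p under 0.05 was Irf1, against 15% of all genes. Irf1 stood at 37.6, 43.5 and 34.8 FPKM in the MHCII-KO libraries, all below the WT values of 46.9 to 70.4. The log2 difference was -0.61 (SE 0.25, adjusted p = 0.329). Irf1 and Samhd1 were the members in which all MHCII-KO libraries were below all WT libraries, as they were in 23.4% of all genes. Ifitm3 was the member in which all were above, as in 7.97% of all genes. It stood at 31.0, 20.6 and 41.9 FPKM in WT and at 43.8, 53.8 and 48.4 in MHCII-KO libraries, a log2 difference of 0.68 (SE 0.33). Of the members, 10 were above 0, against 32.5% of all genes, and the median was -0.28 against -0.22 for all genes. Without WT replicate 3 the median was 0.02 and 20 members were above 0. Without WT replicate 2 it was -0.41, without MHCII-KO replicate 1 it was -0.44, without replicate 2 it was -0.10 and without replicate 3 it was -0.19. After scaling, the members' median was -0.04 by quantiles and -0.02 by median ratios, with 17 of 37 above 0 in both cases. The medians of all genes were then -0.03 and 0.02, with 47.9% and 51.2% above 0.

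The medians of both families lay on the same side of 0 as in the second comparison. Of the IFIT and ISG15 family 5 of 6 genes were below WT, with a median of -0.35, and 4 of 5 OAS genes were above, with a median of 0.47. The IFIT and ISG15 median was 0.15 without WT replicate 3, -0.64 without MHCII-KO replicate 1 and -0.17 without MHCII-KO replicate 2. It was -0.10 with quantile normalization, -0.08 with median-ratio scaling and -0.56 with library weights. The OAS median was 0.21 without WT replicate 2 and 0.77 without WT replicate 3. It was 0.73 with quantile normalization, 0.74 with median-ratio scaling, 0.26 with library weights and 0.20 over the OAS genes with a mean FPKM of at least 5. Oasl1 stood at 1.62, 1.81 and 3.31 FPKM in WT and at 4.39, 3.95 and 3.15 in MHCII-KO libraries, a log2 difference of 0.60 (SE 0.27). Irf9 stood at 23.1, 13.1 and 15.5 FPKM in MHCII-KO libraries, with replicate 1 inside the WT range, and its log2 difference was -0.63 (SE 0.28). All 7 sensors and all 4 ligase, PARP and TRIM genes were below 0, with medians of -0.28 and -0.41.

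The other genes of the pathway were taken from lists drawn up from general knowledge. Of the 12 interferon genes, 5 were listed at 0 in every library, and none passed the filter. Ifnb1, the gene of interferon beta, was listed above 0 in WT replicate 3 only, at 0.11 FPKM, and so was Ifna1, at 0.04 FPKM. Ifna2 was listed at 0.04 and 0.08 FPKM in WT replicates 1 and 2 and at 0 in WT replicate 3, and the 12 genes summed to 1.27, 1.17 and 0.90 FPKM in WT. Values this low stand for very few fragments. Ifng, the type II interferon of T and NK cells, stood at 0.91, 0.51 and 0.45 FPKM in WT, 0.30, 0.13 and 0.24 in Tyr-NrasQ61K and 0.15, 0.35 and 0.18 in MHCII-KO libraries. All WT libraries were above all others, and no test was made. Among the genes tested, all Tyr-NrasQ61K libraries were below all WT libraries in 10.5%, and all MHCII-KO libraries in 23.4%.

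No gene of the receptor, JAK-STAT, sensor, negative regulator or other interferon-induced lists was called in any comparison. Of these 91 genes, library weights called 5 higher and 23 lower in Tyr-NrasQ61K and 5 higher and 34 lower in MHCII-KO against WT. Of all 16587 genes, the same fit called 1007 higher and 4069 lower, and 1649 higher and 5758 lower. The replicate block called 2 higher and 6 lower, and 1 higher and 7 lower, of the 91. Of all genes it called 894 and 777. The 5 pathway genes higher with library weights were Ikbke, Irf2, Lgals3bp, Tlr9 and Trim25 in both comparisons. Those higher with the block were Ikbke and Tlr9, and Tlr9. Without WT replicate 1, Siglec1 was called higher in both comparisons, a gene listed at 0 in both remaining WT libraries. In MHCII-KO against Tyr-NrasQ61K the median differences were -0.15 over 5 receptor genes, -0.07 over 5 JAK-STAT genes, -0.01 over 17 sensor and adaptor genes and -0.04 over 9 negative regulators. It was 0.01 over 55 other interferon-induced genes, of which 28 were above 0, where the 37 members had 29. Ifnar1, a chain of the type I receptor, was level, between 21.4 and 25.3 FPKM in all 9 libraries. Socs1, a feedback inhibitor of the JAK kinases, stood at 4.61, 2.98 and 5.67 FPKM in WT, 2.78, 6.53 and 2.72 in Tyr-NrasQ61K and 2.35, 4.72 and 3.46 in MHCII-KO libraries. The gene with the smallest unadjusted p in each list was Il10rb, Stat3, Ikbke, Ptpn6 and Uba7, with log2 differences of -0.47, -0.26, -0.20, -1.15 and -0.49. Ptpn6, the gene of the phosphatase SHP-1, owed its value to Tyr-NrasQ61K replicate 3, at 341 FPKM where the other libraries stood at 48.1 to 97.6.

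The other interferon-induced genes had a median of -0.41 in Tyr-NrasQ61K and -0.34 in MHCII-KO libraries against WT, with 40 and 47 of the 55 below 0. The 5 pathway genes with the smallest unadjusted p in Tyr-NrasQ61K against WT were chosen after their values were seen. In each of them the WT libraries overlapped with no other library. Of all genes tested, 18.7% did not overlap between Tyr-NrasQ61K and WT in either direction, and 31.3% between MHCII-KO and WT. Epsti1 stood at 118, 67.8 and 120 FPKM in WT and at 16.9 to 45.2 in the 6 other libraries, a log2 difference of -1.69 for Tyr-NrasQ61K (SE 0.42, adjusted p = 0.205). Trim21, an antibody receptor inside the cell, gave -0.89 (SE 0.22). The other 3 were higher than WT. Lgals3bp stood at 25.2 to 53.5 FPKM in WT and 87.2 to 127 in the 6 other libraries, a log2 difference of 1.43 (SE 0.33, adjusted p = 0.172). Tlr9, an endosomal sensor of DNA, stood at 5.24 to 5.86 FPKM in WT and 8.36 to 9.995 in the other libraries, a log2 difference of 0.60 (SE 0.15). Ikbke, a kinase that activates interferon regulatory factors, gave 0.75 (SE 0.20). Against WT all 5 passed with library weights, with adjusted p of 0.00506 to 0.0173 in limma for Tyr-NrasQ61K. That fit called 5076 of all 16587 genes in the comparison of Tyr-NrasQ61K with WT.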

How the data were processed

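The FPKM were deposited by the authors in 1 table of 9 libraries. The submitters' processing notes name TopHat, Cufflinks and Cuffdiff with build mm10, and the labels name a single flow cell of a Genome Analyzer. No source used here gives program versions, annotation or strand use. FPKM hold no read numbers, so the depth is known only in relative terms. It was estimated from the commonest ratio between libraries among genes under 0.1 FPKM. The estimate assumes that values there often stand for single fragments. At the commonest ratio lay 112 of the 578 genes compared for Tyr-NrasQ61K replicate 2, and 164 of 788 for MHCII-KO replicate 2. Of 37819 entries, 18 with several values per library were left out, and 27 unnamed columns were not used. Columns of the authors' own comparisons were not used.

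Genes that reached an FPKM of 1 in 3 or more libraries were fitted as log2(FPKM + 1) by limma 3.58.1 in R 4.3.3, with 1 mean for each of the 3 groups, trended moderated variances and no block. The spread was thus shared over the groups, and p-values were adjusted by Benjamini-Hochberg over the 16587 genes at 0.05. The pipeline was run on simulated data with independent noise for each gene, to check that it recovers large changes. That run does not speak to differences as small as those of the members, or to shifts shared by many genes of a library. Alternatives covered the pseudocount, the filter, scaling, library weights, the block, the groups fitted, the variance trend, gene type, and leaving out libraries. Promoters were from RefSeq (GRCm38.p6), and gene types and positions from GENCODE M21.

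The members and lists were chosen with earlier results of these data known. Values were printed for the 10 members with the smallest unadjusted p between the NRAS61K groups, the 4 smallest in each other comparison, the 3 highest means and 7 named members. From the pathway lists the gene with the smallest p per list, Ifnar1, Ifnb1, Ifng and Socs1 were added, and other genes serve as examples of their role. One gene of the rule is not reported here. Marker lists covered T, B, NK, dendritic and plasmacytoid dendritic cells, macrophages, melanocytes, adipocytes, and handling and stress.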

Additional observations from a re-analysis of the deposited data

How the results depend on the processing

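Between the NRAS61K groups no member was called under any of the 21 alternatives. Against WT, members were called only with library weights, 8 in Tyr-NrasQ61K and 4 in MHCII-KO, all lower, where that fit called 5076 and 7407 of all genes. The 8 were Mx1, Dhx58, Zbp1, Irf1, Irf9, Parp9, Ifi44 and Ifi35, and the 4 were Ifi204, Irf1, Irf9 and Parp9. The weights gave Tyr-NrasQ61K replicate 2 the lowest weight (0.197) and MHCII-KO replicate 3 the highest (5.22).

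The counts over all genes depended on the settings. Between the NRAS61K groups the 8 calls became 24 with library weights, 0 with protein-coding genes only and 14 without the 2 libraries that stood apart on the first component. For Tyr-NrasQ61K against WT the 39 became 24 with a pseudocount of 0.1, 18 with a mean FPKM of at least 5, 66 with median-ratio scaling and 105 with protein-coding genes only. For MHCII-KO against WT the 24 became 13, 37 and 108 under the last 3 of these settings. Leaving out 1 library gave 7 to 11, 11 to 36 and 9 to 29 calls in the 3 comparisons.

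Whether the replicate numbers pair the samples was not settled. The deviations of same-numbered libraries correlated at -0.0384 to 0.332, and 6 of the 9 pairs were below 0.1. The highest value was that of the libraries numbered 2 of the NRAS61K groups. Replicate 2 was the lowest library in 68.6% of all genes in WT, 58.6% in Tyr-NrasQ61K and 59.3% in MHCII-KO. Such correlations cannot decide whether same-numbered libraries share a batch. With the replicate block 894 genes were called in Tyr-NrasQ61K and 777 in MHCII-KO against WT, and 7 between the NRAS61K groups, with no member among them.

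Signs between the NRAS61K groups turned in these cases. Quantile normalization gave Samhd1 0.012, Irf1 0.10 and Stat2 0.13, and median-ratio scaling gave Irf1 0.035 and Stat2 0.072. Library weights gave Irf1 0.070, Stat2 0.070, Stat3 0.22 and Ikbke 0.037. Stat2 was at 0.11 without the 2 libraries that stood apart on the first component. With 1 library left out, the differences ranged from -0.024 to 0.61 for Ifit2, -0.027 to 0.67 for Rtp4, -0.016 to 0.49 for Ifit1, -0.27 to 0.10 for Samhd1, -0.19 to 0.054 for Irf1, -0.16 to 0.21 for Usp18, -0.15 to 0.39 for Mx1, -0.066 to 0.39 for Irf7, -0.12 to 0.26 for Irf9, -0.12 to 0.068 for Stat2 and -0.47 to 0.018 for Stat3. The cause was not tested. Depth limits the shallowest libraries, and fragment numbers behind single values are unknown.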

Other observations

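Some entries of the table were listed at 0 in libraries where related values were not low. Siglec1, a macrophage receptor induced by interferon, was listed at 0 in WT replicates 2 and 3 and at 37.3 FPKM in WT replicate 1, with 8.63 to 18.6 in the other libraries. Unc93b1, which carries nucleic acid receptors to the endosome, was listed at 0 in WT replicate 1 and at 50.1 to 74.3 FPKM in the other libraries.

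The identifier of Ifi27 was listed under the symbol Ifi27l1, at 56.8, 42.5 and 57.1 FPKM in WT, 42.0, 36.6 and 53.8 in Tyr-NrasQ61K and 47.7, 37.9 and 44.1 in MHCII-KO libraries, and was not counted as a member.

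Of the members, 19 lay within 1000000 bases of another. Ifit1, Ifit2 and Ifit3 stood together on chromosome 19 and Oas1a, Oas2 and Oas3 on chromosome 5. Members whose promoter window held the core letters had a median log2 difference of 0.15 between the NRAS61K groups (n = 13), and those whose window did not had 0.09 (n = 14). Against WT the medians were -0.22 and -0.41 in Tyr-NrasQ61K and -0.08 and -0.29 in MHCII-KO libraries. No test was made of these differences.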
